A study of Mus musculus with 9 samples.

Results

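Transcripts of 10 genes of the major histocompatibility complex (MHC) class I pathway were followed across the blood cell types of mouse bone marrow. The genes were chosen by symbol, and all 10 were found among the 31053 genes of the count matrix. They are the classical heavy chains H2-K1 and H2-D1, the nonclassical heavy chains H2-Q4, H2-Q6, H2-Q7, H2-T22 and H2-T23, the shared light chain B2m, and the peptide loading genes Tap1 and Tapbp. Femoral marrow was taken from 9 female mice, 3 from each of New Zealand Black (NZB), its White counterpart (NZW) and their cross NZBWF1, at 9 to 10 weeks of age and before overt disease. NZBWF1 mice come from an NZW mother and an NZB father, and the cross serves as a model of systemic lupus erythematosus. All mice were untreated, and each gave 1 droplet single-cell RNA library of 3′ transcript ends counted by unique molecular identifiers (UMIs).

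Class I molecules carry short peptides from proteins made inside the cell to its surface, where CD8 T cells and NK cells read them. A heavy chain folds with beta-2 microglobulin (B2m) in the endoplasmic reticulum, the TAP transporter brings peptides in from the cytosol, and tapasin (Tapbp) holds the empty molecule at the transporter until a peptide is bound. Interferons raise the genes of this pathway in most cells, and the heavy chain genes are among the most variable of the genome. NZB mice carry the H2d haplotype and NZW mice H2z, while the reference genome to which the reads were aligned comes from C57BL/6, which is H2b. A difference between strains in how well reads match the reference therefore cannot be told apart from a difference in transcript number. This holds wherever a level is compared between strains. The order of classes was compared within each mouse.

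Cells were placed in classes by lists of marker genes that hold no class I gene, and the classes are named for the cell type whose markers they carry. Of 36525 cells that passed quality filters, 28112 (77.0%) were placed, and 12 classes had enough cells to be tested. These were progenitor-like cells (stem or early progenitor), granulocyte-monocyte precursor-like (GMP-like) cells, immature neutrophil-like, mature neutrophil-like, monocyte-like, nonclassical monocyte-like, plasmacytoid dendritic cell-like (pDC-like), B-cell progenitor-like, mature B-like, T-like, NK-like and early erythroid-like cells. The placed cells held 6254995 to 12240723 UMIs per mouse. The UMIs of all cells of a class were summed within each mouse, so that the mouse was the replicate, and levels are given as CPM, the UMIs of a gene scaled to a common total in each class and mouse. NZB replicate 2 had 3 nonclassical monocyte-like cells and was left out of that class, which was tested with 8 mice.

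B2m lies on mouse chromosome 2 and the other 9 genes lie on chromosome 17. On GRCm38, H2-K1 (ENSMUSG00000061232) spans bases 33996017 to 34000347 of the minus strand. The upstream sequences of 5 genes are printed. H2-Q7, H2-D1, H2-T22 and H2-T23 were picked by the NZB to NZW differences below, so their motifs are no separate evidence on those differences. Whether a motif bears on a strain difference was not tested. Each is the 250 bases before a RefSeq transcription start on GRCm38.p6, from the C57BL/6 reference and not from NZB or NZW. Capitals mark 2 motifs searched on both strands, the NF-kappaB motif of class I promoters (GGGGATTCC) and the interferon-stimulated response element (ISRE, TTTCNNTTTC).
H2-D1 (chr17:35262844-35263093, plus strand): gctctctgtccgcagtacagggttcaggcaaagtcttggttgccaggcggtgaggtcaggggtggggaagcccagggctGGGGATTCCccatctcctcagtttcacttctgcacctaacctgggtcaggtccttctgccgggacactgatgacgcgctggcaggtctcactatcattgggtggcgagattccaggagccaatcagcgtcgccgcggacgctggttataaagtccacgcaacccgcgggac
H2-Q7 (chr17:35438905-35439154, plus strand): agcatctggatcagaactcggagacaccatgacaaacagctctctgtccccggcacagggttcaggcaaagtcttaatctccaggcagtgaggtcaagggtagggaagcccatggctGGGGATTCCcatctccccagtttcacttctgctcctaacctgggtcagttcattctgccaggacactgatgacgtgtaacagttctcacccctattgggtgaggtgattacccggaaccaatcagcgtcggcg
H2-T22 (chr17:36042743-36042992, minus strand): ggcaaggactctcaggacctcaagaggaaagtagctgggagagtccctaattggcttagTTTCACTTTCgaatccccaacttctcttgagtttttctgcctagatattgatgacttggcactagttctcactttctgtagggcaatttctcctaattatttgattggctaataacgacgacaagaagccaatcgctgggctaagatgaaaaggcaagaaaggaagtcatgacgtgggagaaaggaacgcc
H2-T23 (chr17:36032702-36032951, minus strand): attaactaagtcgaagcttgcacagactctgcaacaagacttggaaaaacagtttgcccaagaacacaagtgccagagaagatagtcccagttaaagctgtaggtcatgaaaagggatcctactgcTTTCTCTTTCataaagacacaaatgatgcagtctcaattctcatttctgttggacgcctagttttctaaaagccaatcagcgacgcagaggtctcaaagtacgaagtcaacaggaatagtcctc
B2m (chr2:122147437-122147686, plus strand): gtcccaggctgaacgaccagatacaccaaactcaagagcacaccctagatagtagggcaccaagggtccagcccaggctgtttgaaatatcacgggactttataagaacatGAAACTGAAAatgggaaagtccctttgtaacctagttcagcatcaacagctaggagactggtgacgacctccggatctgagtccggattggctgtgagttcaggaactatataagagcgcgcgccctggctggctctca
The search covered these 250 bases and a short stretch after the start, in every promoter. The NF-kappaB letters occurred in the promoters of 4 of the 10 genes, H2-K1, H2-D1, H2-Q6 and H2-Q7, and in 82 of all 32851 promoters searched (0.250%). The ISRE letters occurred in 3 of the 10, H2-T22, H2-T23 and B2m, at 191, 124 and 139 bases before the start, and in 1131 promoters overall (3.44%). Neither motif occurred in the windows of H2-Q4, Tap1 and Tapbp, which says only that these letters are not there. CCAAT, the core of the Y box of MHC promoters, occurred in all 10 and in 37.4% of all promoters.

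By CPM, pDC-like cells ranked among the highest 4 of the 12 classes for all 10 genes, and early erythroid-like and immature neutrophil-like cells among the lowest 3. CPM is a share of the UMIs of a class, and cells of the classes differ in their UMIs. The median per cell was 9314.5 in early erythroid-like, 2390 in immature neutrophil-like, 1697 in pDC-like and 1247 in nonclassical monocyte-like cells. The order is therefore not one of molecules per cell, which was not compared. Nonclassical monocyte-like cells were highest for H2-D1 and B2m, and with 2 UMIs of H2-Q6 and 6 of H2-Q7 in all mice together their place in the order of those genes could not be read. H2-K1, a classical heavy chain that presents peptides to CD8 T cells, averaged 2547 CPM ± 330 (SD, n = 9 mice) in T-like cells and 133 ± 22.4 in early erythroid-like cells. H2-D1, the other classical heavy chain listed here, averaged 5361 CPM ± 1281 (SD, n = 8) in nonclassical monocyte-like cells and 333 ± 39.4 (n = 9) in early erythroid-like cells. B2m, the light chain on which surface display of class I molecules depends, averaged 2864 CPM ± 462 (SD, n = 8) in nonclassical monocyte-like cells and 345 ± 43.1 (n = 9) in immature neutrophil-like cells.

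**Figure D1:**
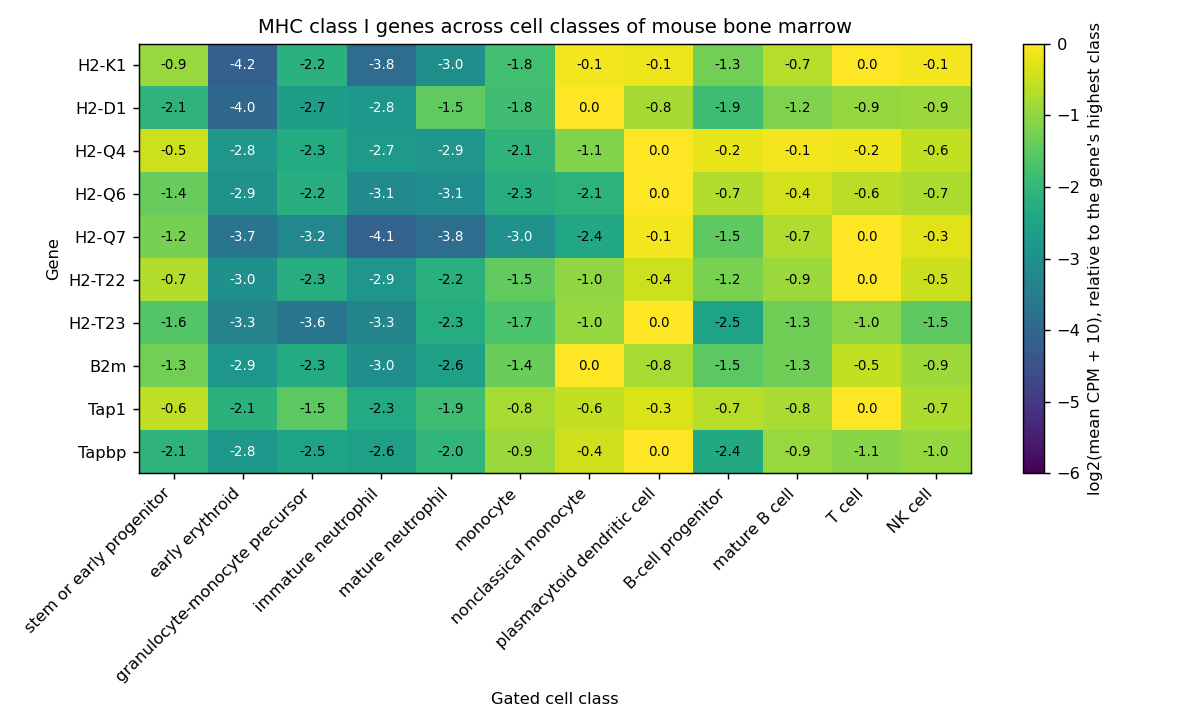
Level of each gene (rows) in each of the 12 gated classes (columns), as log2 of the mean CPM over mice plus 10, relative to the class in which that gene was highest (0.0). The pDC-like column lies between -0.8 and 0.0 for all genes, the nonclassical monocyte-like column is within 0.1 of 0.0 for H2-K1, H2-D1 and B2m only, and the early erythroid-like, GMP-like and immature neutrophil-like columns are low for all.

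The order of the classes was tested between neighbours with an exact paired permutation test over mice (two-sided, adjusted over the 110 neighbour pairs), and 26 pairs differed. The smallest p this test can give is 0.00391 with 9 mice and 0.00781 with 8, so that it passed only where nearly all mice moved the same way. With 1 mouse left out, 18 pairs at the smallest p were needed for any to pass, and the count was 21 without NZB replicate 2, 18 without NZB replicate 3 and 0 without any 1 of the other 7 mice. H2-K1 was the most finely ordered, with 8 of 11 steps passing. The neighbour steps among its T-like, NK-like, nonclassical monocyte-like and pDC-like levels did not pass. From pDC-like cells downward it fell at each step through mature B-like, progenitor-like, B-cell progenitor-like, monocyte-like, GMP-like, mature neutrophil-like, immature neutrophil-like and early erythroid-like cells. NK-like and pDC-like cells were not neighbours for H2-K1 and were not compared by the test. In NZB, pDC-like cells (2670 to 3288 CPM) were above NK-like cells (1722 to 2067) in every mouse. In NZW, pDC-like cells (1570 to 1975) were below NK-like cells (2603 to 3034).

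H2-D1 differed at 6 of 11 steps. It was highest in nonclassical monocyte-like cells, followed by pDC-like, NK-like and T-like cells. The steps from pDC-like to NK-like and from NK-like to T-like cells did not pass over all mice. In NZB, H2-D1 was higher in pDC-like (3833, 4360 and 4267 CPM) than in NK-like cells (2893, 2813 and 3230). In NZW it was lower in pDC-like (1772, 2464 and 2253) than in NK-like cells (2988, 2629 and 2741). Mature neutrophil-like cells ranked above monocyte-like cells for H2-D1 and below them for H2-K1. B2m differed at 4 of 11 steps. It fell from nonclassical monocyte-like cells to T-like, pDC-like and NK-like cells, whose neighbour steps did not pass. It fell again to progenitor-like, mature B-like, monocyte-like and B-cell progenitor-like cells, then to GMP-like cells. The last fall was to both neutrophil-like classes and early erythroid-like cells. In NZB, B2m was higher in pDC-like (1927 to 2155 CPM) than in NK-like cells (1250 to 1740). In NZW it was lower in pDC-like (1142 to 1305) than in NK-like cells (1528 to 1603). H2-Q7 and H2-T23 differed at 2 steps each, H2-Q4, H2-T22, Tap1 and Tapbp at 1 each, and H2-Q6 at 0, where the counts were low.

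**Figure D2:**
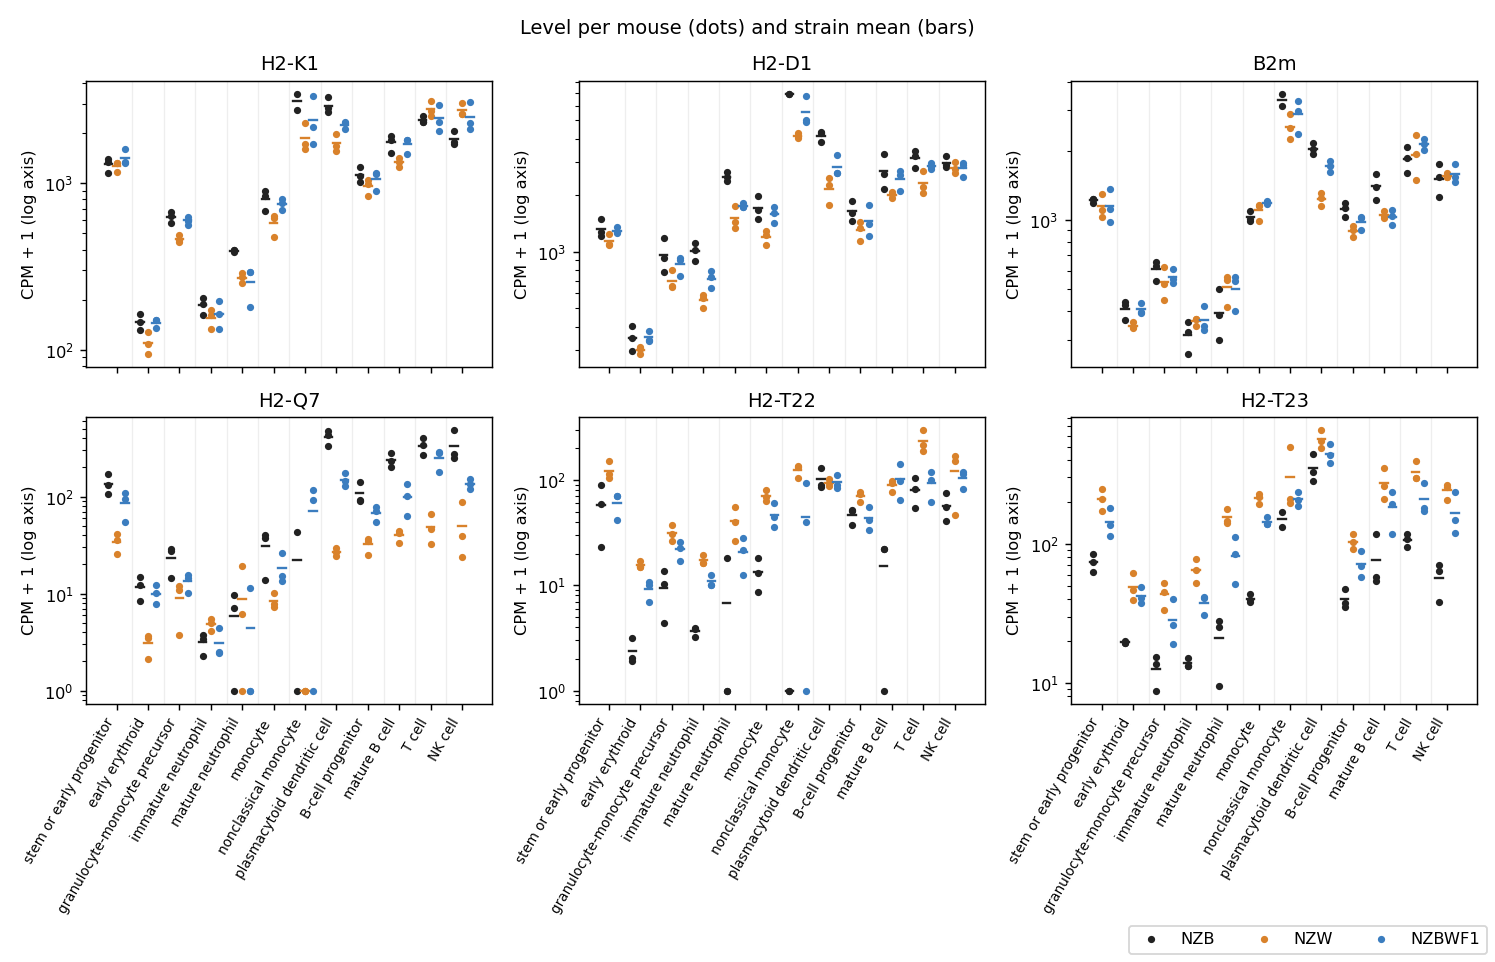
Level of 6 genes in each class for every mouse (dots) with the strain mean (short bars), as CPM plus 1 on a log axis, NZB in black, NZW in orange and NZBWF1 in blue. The NZB mean lies above that of NZW for H2-Q7 in most classes and below it for H2-T23 in all of them, with NZBWF1 mostly between.

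NZB and NZW, the parent strains, differed in at least 1 class I transcript in 11 of the 12 classes. A quasi-likelihood test in edgeR was fitted in each class on all genes with enough counts, and p-values were adjusted over all genes of the class (Benjamini-Hochberg). The filter left 99 of the 120 gene by class pairs. At an adjusted p under 0.05, 47 of the 99 were called, 27 higher in NZB and 20 lower. Over all genes and classes 5320 of 58312 tests (9.12%) were called, 4.48% higher and 4.65% lower. A gene that is low in one strain could pass the filter through the other strain alone, so the 47 calls describe what was tested and not all 120 pairs. In nonclassical monocyte-like cells, the class without a call, 3 genes were tested in 8 mice and 2 had an unadjusted p under 0.05. There H2-D1 was at 6913 and 6887 CPM in the 2 NZB mice and at 4116, 4270 and 4027 in NZW, without overlap (0.70 ± 0.21, SE, edgeR, adjusted p = 0.101). With 1 library per mouse the p-values measure the spread between mice together with that between libraries.

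**Figure D3:**
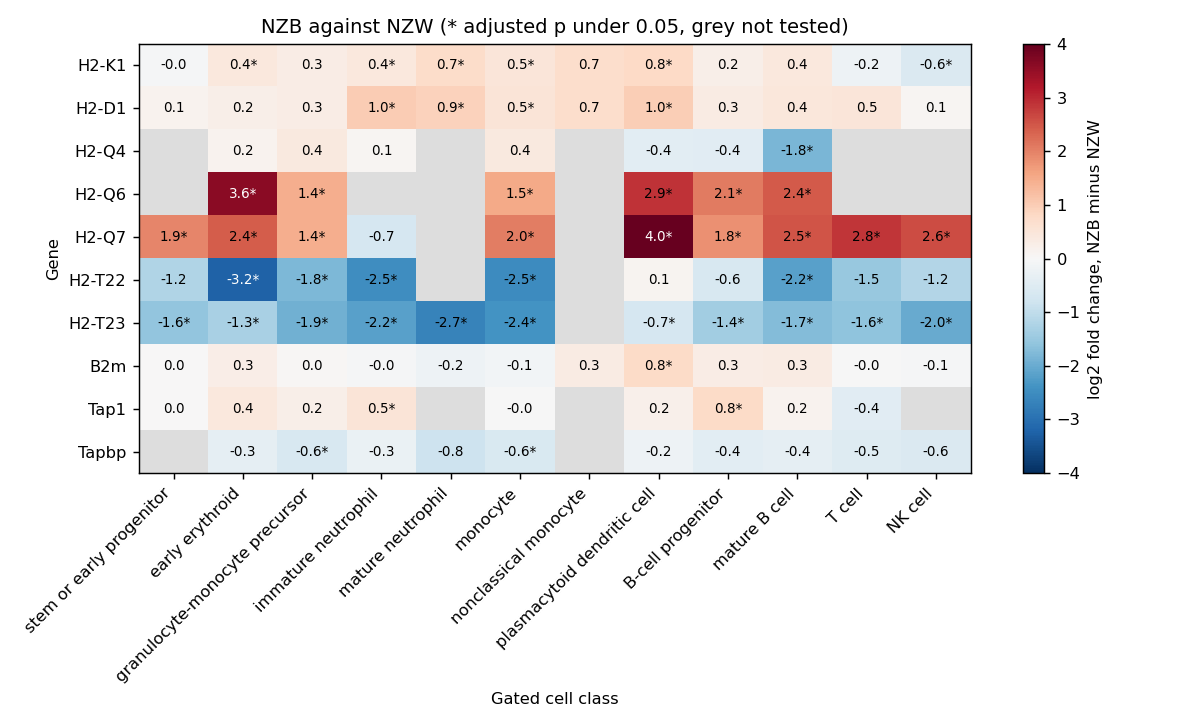
Log2 fold change of NZB over NZW for each gene (rows) and class (columns), with a star where the adjusted p was under 0.05 and grey where the gene had too few counts to be tested. H2-Q6 and H2-Q7 are red except H2-Q7 in immature neutrophil-like cells, H2-T23 is blue throughout, and B2m, Tap1 and Tapbp are pale.

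Among the classical heavy chains, H2-D1 was called higher in NZB in 4 of 12 classes and lower in none. It was called higher in 7 of 11 when classes were taken from clusters and in 6 of 12 without NZB replicate 2 or NZBWF1 replicate 1. The fitted difference was positive in all 12 classes, with an unadjusted edgeR p under 0.05 in 10. In pDC-like cells, the main producers of type I interferon, the 3 NZB mice had 3833, 4360 and 4267 CPM of H2-D1 and the 3 NZW mice 1772, 2464 and 2253. The groups did not overlap, and NZB was higher by 0.97 ± 0.11 on the log2 scale (SE, edgeR, adjusted p = 1.75e-10). In immature neutrophil-like cells NZB had 1016, 891 and 1115 CPM against 586, 501 and 569 in NZW, again with no overlap (log2 difference 1.03 ± 0.12, SE, edgeR, adjusted p = 1.82e-06). Mature neutrophil-like (0.91 ± 0.13) and monocyte-like cells (0.51 ± 0.10) were called too. In NK-like cells the difference was 0.08, with a 95% interval of -0.15 to 0.31, all of which lies below the value for pDC-like cells.

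H2-K1 was higher in NZB in 5 classes and lower in 1. In pDC-like cells the NZB mice had 2670, 3288 and 2821 CPM and the NZW mice 1570, 1975 and 1674, without overlap (log2 difference 0.78 ± 0.11, SE, edgeR, adjusted p = 1.20e-07, and 0.119 when cells needed at least 2000 UMIs and 1000 genes). In monocyte-like cells the difference was 0.48 ± 0.11 (SE, edgeR, adjusted p = 0.00128). NK-like cells went the other way, with 1722, 1758 and 2067 CPM in NZB and 2611, 2603 and 3034 in NZW. These groups did not overlap either, and NZB was lower by 0.58 on the log2 scale (-0.58 ± 0.13, SE, edgeR, adjusted p = 0.00328), a call that was lost without NZW replicate 3 (-0.51; adjusted p = 0.147), with the stricter minimum of UMIs and genes (-0.89; 0.704), with at most 5% mitochondrial UMIs per cell (-0.48; 0.254) and without a filter on low counts (-0.50; 0.133). The difference stayed negative under all 4 of these.

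The other 3 H2-K1 calls were smaller or less firm. In mature neutrophil-like cells (0.72 ± 0.21, SE, edgeR, adjusted p = 0.0449) the call was lost without any 1 of the 6 parental mice or NZBWF1 replicate 1, with an adjusted p of up to 0.153. That call was also lost with no doublets removed (edgeR, adjusted p = 0.251) and without a filter on low counts (0.187). In early erythroid-like cells (0.43 ± 0.11; adjusted p = 0.0111, edgeR) the call was lost without NZB replicate 3, NZW replicate 1 or NZW replicate 3 (up to 0.0893), and with classes taken from clusters (0.0665). In immature neutrophil-like cells (0.41 ± 0.12; adjusted p = 0.0262, edgeR) the call was lost without NZB replicate 2 or 3 or NZW replicate 1 or 2 (up to 0.116), and with classes taken from clusters (0.132). In the last class the CPM of the strains overlapped, with 162, 187 and 204 in NZB against 132, 161 and 172 in NZW, and the difference was -0.01 when cells needed at least 2000 UMIs and 1000 genes. The trimmed mean of M-values (TMM) scaling of the fit moved the median gene by 0.16 there, by 0.17 in mature neutrophil-like cells and by -0.16 in GMP-like cells relative to CPM.

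Of the nonclassical heavy chains, H2-Q6 and H2-Q7 were higher in NZB in nearly all classes tested. H2-Q6 and H2-Q7 encode Qa-2, a class I antigen that is bound to the membrane by a lipid anchor. In pDC-like cells the NZB mice had 330, 480 and 430 CPM of H2-Q7 and the NZW mice 23.3, 25.8 and 28.3, the latter from 10 UMIs in all. Every NZB mouse was above every NZW mouse, by 4.0 ± 0.29 on the log2 scale (SE, edgeR, adjusted p = 4.57e-20). H2-Q7 was called higher in NZB in 9 of the 10 classes tested, among them T-like (2.85 ± 0.46), NK-like (2.60 ± 0.39), mature B-like (2.50 ± 0.37) and monocyte-like cells (2.04 ± 0.34). In the remaining class, immature neutrophil-like cells, NZB had 2.14 CPM on average and NZW 3.83, and the difference was not called (-0.67, 95% interval -1.49 to 0.14).

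H2-Q6 was called higher in NZB in all 6 classes that the filter left, and a class could pass the filter through NZB alone. In immature neutrophil-like cells, where H2-Q6 was not tested, the NZB mean was 1.19 CPM (14 UMIs) and the NZW mean 2.22 (23 UMIs). In pDC-like cells its level was 157, 217 and 135 CPM in NZB against 15.5, 25.8 and 28.3 in NZW (log2 difference 2.88 ± 0.37, SE, edgeR, adjusted p = 2.53e-09). In early erythroid-like cells NZW had 3 UMIs of H2-Q6 in all 3 mice together against 30 in NZB, so that the fitted difference of 3.62 there rests on few molecules. The H2-Q6 call in GMP-like cells was lost without NZB replicate 1 or NZW replicate 1 (edgeR, adjusted p = 0.0626 and 0.0628), that in mature B-like cells without NZB replicate 3 (0.0929), and the H2-Q7 call in GMP-like cells without NZB replicate 2 or NZW replicate 2 (0.0656 and 0.0702) and with classes taken from clusters (0.283). With at most 5% mitochondrial UMIs H2-Q6 was called in 1 of 3 classes and H2-Q7 in 4 of 5, and the H2-Q6 value in pDC-like cells became 2.72 (edgeR, adjusted p = 0.0734).

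H2-T23 and H2-T22 ran in the opposite direction. H2-T23 encodes the heavy chain of Qa-1, which presents leader peptides of other class I chains to the NK cell receptor CD94/NKG2A. It was lower in NZB in all 11 classes tested, by between 0.67 and 2.67 on the log2 scale. In monocyte-like cells the NZB mice had 38.8, 42.5 and 37.0 CPM and the NZW mice 225, 194 and 217, and the groups were far apart (-2.40 ± 0.14, SE, edgeR, adjusted p = 2.58e-16). In NK-like cells the levels were 68.9, 37.0 and 62.4 CPM in NZB and 262, 256 and 206 in NZW, also without overlap (-2.01 ± 0.37, SE, edgeR, adjusted p = 1.58e-04). The smallest difference was in pDC-like cells, with 283, 327 and 438 CPM in NZB and 653, 489 and 544 in NZW (-0.67 ± 0.16, SE, edgeR, adjusted p = 0.00240), and this call was lost without NZB replicate 1 or NZW replicate 1 (0.0509 and 0.0775). The call in T-like cells was lost without NZB replicate 3 or NZW replicate 1 (edgeR, adjusted p = 0.0564 and 0.0513). With at most 5% mitochondrial UMIs H2-T23 was called in 5 of 8 classes, and the calls were lost in NK-like (edgeR, adjusted p = 0.222), B-cell progenitor-like (-0.65; 0.719) and pDC-like cells (-0.33; 0.745). With the stricter minimum of UMIs and genes it was called in 6 of 8, and the calls in NK-like (-3.85; 0.874) and pDC-like cells (-1.01; 0.132) were lost while the fitted differences were larger.

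H2-T22, whose product is known as a ligand of some gamma delta T cells, was called lower in NZB in 5 of 10 classes. The fitted difference was negative in 9 classes and positive in 1, with an unadjusted edgeR p under 0.05 in 9. In monocyte-like cells NZB had 17.2, 12.1 and 7.66 CPM and NZW 62.2, 79.3 and 68.2, with no overlap (-2.52 ± 0.25, SE, edgeR, adjusted p = 4.19e-10). In early erythroid-like cells all NZB mice were at 0.92 to 2.14 CPM and all NZW mice at 14 to 16.1 (-3.23 ± 0.38, SE, edgeR, adjusted p = 2.84e-07). pDC-like cells showed no such gap, with 88.4, 84.5 and 128 CPM in NZB and 101, 85.8 and 91.8 in NZW (0.12, 95% interval -0.42 to 0.67). Immature neutrophil-like (-2.48 ± 0.25) and GMP-like cells (-1.81 ± 0.29) were called as well. The call in mature B-like cells (-2.16 ± 0.62) was lost without any of the 3 NZB mice or NZW replicate 1 or 3 (edgeR, adjusted p of up to 0.181). In nonclassical monocyte-like cells H2-T22 had 0 UMIs in the 2 NZB mice and 8 in NZW, and it was too low to be tested.

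H2-Q4, a further Qa region heavy chain, was called in 1 of 7 classes. In mature B-like cells NZB had 21.1, 0 and 53.2 CPM and NZW 97.5, 123 and 145 (-1.82 ± 0.50, SE, edgeR, adjusted p = 0.0166). The NZB values came from 7 UMIs, NZB replicate 2 had 13 such cells, and the call was lost without NZB replicate 1 (0.274), NZB replicate 2 (0.0509) or NZW replicate 3 (0.0749). For H2-Q4, H2-Q6 and H2-T23, 20.6%, 19.0% and 19.9% of the 75-base stretches in the last 400 bases of their reference transcripts also occur in another gene. A part of their 3′ reads could therefore not be placed uniquely, while no stretch was shared for the other 7 genes. The search compared the longest protein-coding transcript of each gene with the transcripts of genes in the matrix, and not with the rest of the genome. The length of 75 bases was a setting of the search. Unique placement of the reads of the other 7 genes was therefore not shown. The sharing genes included Olfr1238, Efr3a and Rab33b, and for H2-Q6 also the class I gene H2-Q4. How reads of the NZB and NZW alleles were placed was not tested.

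The light chain and the loading genes differed in few classes. B2m was called in 1 of 12, the pDC-like cells, where NZB had 2040, 2155 and 1927 CPM and NZW 1142, 1305 and 1243 (0.76 ± 0.12, SE, edgeR, adjusted p = 5.06e-07, and 0.0516 with the stricter minimum of UMIs and genes). The groups were well separated in these cells, while in monocyte-like cells B2m differed by -0.10 with a 95% interval of -0.28 to 0.08. Tap1, a subunit of the peptide transporter, was higher in NZB in B-cell progenitor-like (0.78 ± 0.21, edgeR, adjusted p = 0.0374) and immature neutrophil-like cells (0.53 ± 0.17; adjusted p = 0.0407) out of 9 classes. B2m was called in 2 classes without NZB replicate 1, NZBWF1 replicate 1 or NZBWF1 replicate 3. The first of the Tap1 calls was lost without any 1 of the 3 NZB mice or NZW replicate 1 or 3 (up to 0.220), and the second without any 1 of these mice or NZBWF1 replicate 3 (up to 0.134). The first was also lost with the stricter minimum (edgeR, adjusted p = 0.258), at most 5% mitochondrial UMIs (0.0611) or classes from clusters (0.0641). The second was also lost with no doublets removed (0.0503), no filter on low counts (0.0537) or classes from clusters (0.0516).

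Tapbp, the tapasin gene, was lower in NZB in 2 of 10 classes. In monocyte-like cells NZB had 155, 129 and 111 CPM and NZW 158, 224 and 211, which did not overlap by a narrow margin (-0.60 ± 0.13, SE, edgeR, adjusted p = 0.00121, and 0.0605 with the stricter minimum). In GMP-like cells it differed by -0.64 ± 0.18 (SE, edgeR, adjusted p = 0.0132). This call was lost without NZB replicate 2, NZW replicate 2 or NZW replicate 3 (up to 0.0758), and with at most 5% mitochondrial UMIs (0.430). No tested class had Tapbp higher in NZB at the threshold.

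In pDC-like cells H2-K1, H2-D1, H2-Q6, H2-Q7 and B2m were higher in NZB and H2-T23 was lower, so that 6 of 10 genes were called there, against 5.59% of all genes tested in that class. The monocyte-like cells had 7 of 10 called, against 21.8% of all genes in that class. Whether the strain difference itself varied among classes was tested with an interaction term in 11 classes. It was called for 8 of the 10 genes, against 17.0% of 8478 genes. The edgeR adjusted p was lowest for H2-K1 (1.22e-12), H2-T23 (3.37e-12), H2-D1 (8.61e-12) and H2-T22 (3.85e-11). Tap1 (0.253) and Tapbp (0.624) did not pass. On the log2 scale H2-K1 was at 0.78 in pDC-like and -0.58 in NK-like cells, and H2-T22 at 0.12 in pDC-like and -2.52 in monocyte-like cells. The part of reference mapping in these differences was not tested.

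Summed levels of the markers of other cell types were apart between NZB and NZW inside some classes. From 19 marker lists looked at in the 12 classes, those given had a mean of at least 150 CPM in NZB or NZW and no overlap between these strains. With so few mice per strain a list or marker can be apart by chance. The share of all genes that were apart in this way was not computed. In mature neutrophil-like cells the summed level of the immature neutrophil list ran from 51512 to 62288 CPM in NZB and 35663 to 47893 in NZW, with 3 of its 6 markers higher in every NZB mouse and 2 higher in every NZW mouse. The T-cell list ran from 6.08 to 42.9 CPM in NZB and 343 to 448 in NZW in the same cells, with Cd3d alone at 0 to 9.03 and 307 to 448 CPM and with Cd5 and Trac at 0 in all strains. In immature neutrophil-like cells the T-cell list ran from 7.39 to 8.93 CPM in NZB and 144 to 222 in NZW, with 1 of 8 markers separated, Cd3d at 6.13 to 6.90 and 143 to 222 CPM, and Bcl11b at 0. In monocyte-like cells the GMP list ran from 997 to 1459 CPM in NZB against 605 to 664 in NZW, and the nonclassical monocyte list from 29.6 to 56.2 against 102 to 209, each with 3 of 6 markers separated. In the same cells the immature neutrophil list ran from 306 to 546 CPM in NZB and 213 to 219 in NZW, with 1 of 6 markers higher in every NZB mouse and 1 in every NZW mouse. The mature neutrophil list ran from 284 to 432 and 171 to 252 there, with 1 marker higher in NZB and 2 in NZW. In pDC-like cells the plasma cell list ran from 138 to 164 CPM in NZB and 254 to 342 in NZW. In mature B-like cells it ran from 833 to 1043 in NZB and 298 to 453 in NZW, and in NK-like cells the monocyte list ran from 709 to 815 and 911 to 1198. In each of these 3 cases 1 of 6 markers was separated between the strains. In mature B-like cells the B-cell progenitor list ran from 4362 to 4596 CPM in NZB and 5771 to 7190 in NZW, with 4 of 10 markers higher in every NZW mouse. In early erythroid-like cells the erythroblast list ran from 1807 to 2421 CPM in NZB and 3240 to 3756 in NZW, with all 6 markers higher in NZW. The remaining lists that were apart had 1 marker separated each. These were the mature B list (352 to 378 CPM in NZB and 156 to 266 in NZW) and the monocyte list (2058 to 2378 and 2530 to 3127) in nonclassical monocyte-like cells, the progenitor list in pDC-like cells (105 to 144 and 148 to 212), the early erythroid list in B-cell progenitor-like cells (124 to 194 and 94.6 to 110), and the T-cell list in mature B-like cells (148 to 202 and 219 to 223). The part of these marker levels in the class I differences was not tested.

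In NZBWF1, the levels of genes that differed between the parents lay mostly between them. With the NZW mean set to 0 and the NZB mean to 1 on the CPM scale, the NZBWF1 mean lay between the parents in 43 of the 47 called pairs (91.5%), at a median of 0.446. Over all 5320 called tests it lay between in 4510 (84.8%), at a median of 0.400, so that the class I genes are near the general pattern. H2-T23 lay between 0.231 and 0.553 in its 11 classes. In monocyte-like cells the NZBWF1 mice had 137, 137 and 156 CPM of H2-T23, above all NZB and below all NZW mice. For H2-Q7 in pDC-like cells they had 145, 127 and 175 CPM, and for B2m in the same cells 1803, 1609 and 1710, each also between the parents without overlap. The 4 pairs outside the parental range were H2-K1 in mature neutrophil-like (-0.13), H2-Q6 in GMP-like (1.20), H2-T22 in mature B-like (-0.16) and Tap1 in immature neutrophil-like cells (1.46), each of which lost its parental call without at least 1 of the mice named above.

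**Figure D4:**
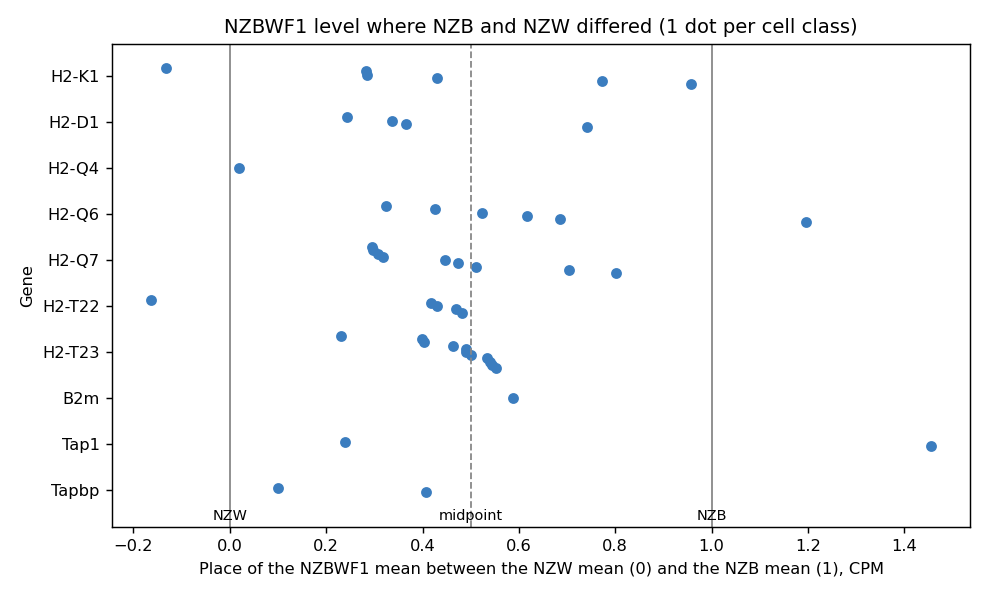
Place of the NZBWF1 mean between the NZW mean (0) and the NZB mean (1) on the CPM scale, 1 dot for each class in which the parents differed at an adjusted p under 0.05, with 47 dots in all. The 11 dots of H2-T23 lie from 0.231 to 0.553, and 4 dots of other genes lie outside 0 to 1.

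NZBWF1 differed from the parental mean on the log scale in 1 of 99 pairs, where 0.643% of all tests were called. It was H2-T23 in monocyte-like cells, higher by 0.62 ± 0.12 on the log2 scale (SE, edgeR, adjusted p = 0.00111, and 0.178 with the stricter minimum of UMIs and genes), which on the CPM scale was 1.14 times the mean of the parents. An additive level lies above the mean of logs wherever the parents differ by several fold, so the log contrast and the CPM ratio are not the same measure. The 3 contrasts that follow from the same 9 mice share samples, so they are given side by side. Against NZB, NZBWF1 was higher in 11 pairs and lower in 8 of 99, where 3.75% of all tests were called, 1.89% higher and 1.86% lower. Against NZW it was higher in 12 and lower in 4, where 1.24% were called, 0.650% higher and 0.592% lower.

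Some genes were called against both parents in the same class. H2-Q7 in pDC-like cells was lower than in NZB by 1.43 on the log2 scale (-1.43 ± 0.15, SE) and higher than in NZW by 2.57 ± 0.36. Both H2-Q7 calls were lost with at most 5% mitochondrial UMIs (edgeR, adjusted p = 0.327 and 0.392), and the second with the stricter minimum (0.0658). H2-T23 in monocyte-like cells was higher than in NZB by 1.82 ± 0.15 and lower than in NZW (-0.58 ± 0.12), the latter lost with the stricter minimum (edgeR, adjusted p = 0.578). H2-D1 in pDC-like cells was lower than in NZB (-0.55 ± 0.11, edgeR, adjusted p = 3.30e-04) and higher than in NZW (0.42 ± 0.12; adjusted p = 0.0413). With the stricter minimum both H2-D1 calls were lost (edgeR, adjusted p = 0.340 and 0.739). The second H2-D1 value was lost without NZB replicate 1, 2 or 3, NZW replicate 1 or 3, or NZBWF1 replicate 3 (up to 0.443), under DESeq2 (0.182) and with at most 5% mitochondrial UMIs (0.705). Of the 19 calls against NZB, 9 held without any 1 mouse, and of the 16 against NZW, 5 did. There were 12 calls against NZB without NZB replicate 2 or without NZBWF1 replicate 2, and 8 and 7 against NZW without NZW replicate 1 or 3.

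Further genes of the pathway were taken from a list of 38 symbols covering the immunoproteasome, peptide trimming, loading chaperones, other class I genes and their transcription factors. Of these, 33 were in the matrix and 23 had enough counts in at least 1 class. NZB and NZW differed in 28 of 171 tests, 23 higher in NZB and 5 lower, against the 9.12% over all genes, and in 18 without NZB replicate 3. The loading chaperone Calr (calreticulin) was higher in NZB in 6 of 10 classes, the oxidoreductase Pdia3 (ERp57) in 4 of 10, and the immunoproteasome subunits Psmb8 and Psmb9 in 4 of 12 and 3 of 11. No class had any of these 4 called lower in NZB.

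In monocyte-like cells the NZB mice had 438, 488 and 505 CPM of Calr and the NZW mice 139, 216 and 194, with no overlap (1.38 ± 0.12, SE, edgeR, adjusted p = 3.12e-11). In pDC-like cells Psmb8 was at 818, 928 and 906 CPM in NZB, 412, 395 and 396 in NZW and 746, 731 and 702 in NZBWF1 (NZB against NZW 1.17 ± 0.14, SE, edgeR, adjusted p = 2.99e-10). Each strain was apart from the others for Psmb8 in these cells. Pdia3 in monocyte-like cells was at 375, 324 and 314 CPM in NZB, 153, 180 and 150 in NZW and 193, 182 and 167 in NZBWF1. It was the 1 pathway gene called lower in NZBWF1 than the parental log mean (-0.40 ± 0.10, SE, edgeR, adjusted p = 0.0205). No pathway gene was called lower without NZW replicate 2, NZBWF1 replicate 2 or NZBWF1 replicate 3, or with the stricter minimum.

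H2-Q10, a secreted class I heavy chain best known from liver, was nearly at 0 in the neutrophil-like cells of NZB. In mature neutrophil-like cells the 3 NZB mice had 0 UMIs, the NZW mice 295, 307 and 318 CPM and the NZBWF1 mice 155, 83.1 and 110. Set against the level that 3 UMIs over the NZB mice would give, NZW was at least 51.4-fold higher. In immature neutrophil-like cells NZB had 1 UMI in all and NZW 313. In pDC-like cells, where H2-Q10 was too low to be tested, the order was the other way, with 16.2 CPM ± 4.39 (SD, n = 3, from 21 UMIs) in NZB and 1 UMI in NZW. NZBWF1 was called above the parental log mean for H2-Q10 in both classes, a contrast with no stable size when 1 parent is at 0. On the CPM scale NZBWF1 was at 0.622 and 0.500 between NZW and NZB.

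Likeness of pattern was measured as Pearson's r of log2(CPM + 10) over the 36 class by strain means, among 6188 genes with a mean of at least 20 CPM. These points share mice, libraries and class gates, so r is a description. Among the class I genes, B2m followed H2-K1 (0.938) and Tap1 (0.903), H2-K1 followed Tap1 (0.926), and H2-D1 and H2-T22 were the least alike of the pairs given here (0.435). Outside the 10 genes, the patterns nearest B2m were those of Madd (0.934), Icam1 (0.924) and Clec2i (0.906). Those nearest H2-K1 were Icam1 (0.928), H2-M3 (0.896) and Sept6 (0.894), and those nearest H2-D1 were Malat1 (0.915), Ankrd44 (0.906) and Sash3 (0.899).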

How the data were processed

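Femoral bone marrow of 9 mice was profiled by 10x 3′ single-cell RNA sequencing. The authors deposited raw UMI counts per gene and cell, made with Cell Ranger 3.1.0 (bcl2fastq 2.20) against mm10 per the submitters' notes. The libraries were held in 1 aggregated matrix whose barcode numbers were read as lines of the deposited list of merged libraries; whether depth was equalised was not stated in the sources used here. Kept barcodes had at least 1000 UMIs, 500 genes and at most 10% mitochondrial UMIs (39051 of 68444). The 2526 of these with the highest Scrublet doublet scores in their library were removed. Their share was set by an assumed rate of 0.8% per 1000 barcodes, and the default threshold of the score called 159. Cells were gated by marker lists with a scoring rule set after the data had been seen; 94.9% of gated cells in a cluster of a named class had the class of that cluster. Free RNA came to 0.596% to 1.18% of the median UMIs per cell, and 170 of 38879 barcode sequences occurred in 2 or more libraries. UMIs were summed per mouse and class (at least 10 cells, at least 2 mice per strain) and tested with edgeR 4.0.16 in R 4.3.3 (filterByExpr, TMM, quasi-likelihood F-test, all 3 strains in 1 fit, no covariate); the script was tested on simulated data. Sums ranged widely, so rare classes were tested with low precision. The SE beside an edgeR value was worked back from the test, as the size of the log2 difference divided by the square root of F. The 95% intervals took a normal quantile of this SE. They are approximate and can be too narrow with 9 mice. A strain floor was set at 3 UMIs over the mice of that strain. Alternatives were DESeq2 1.42.0, its size factors, no expression filter, a replicate block, stricter cell filters, no doublet removal, classes by clusters, free RNA subtraction and leaving out each mouse. All 10 genes were named; of the other pathway genes, those called in at least 3 classes between the parents, or in any class between NZBWF1 and the parental log mean, were named. The members and lists were chosen with earlier results of these data known. Promoters were taken from RefSeq (GRCm38.p6) and gene positions from GENCODE vM21 (GRCm38). Some single results of the pathway list are not reported here.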

Additional observations from a re-analysis of the deposited data

Results flagged for a closer look

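For 8 genes the NZB to NZW difference was not the same in the 11 classes tested together (interaction term, edgeR, adjusted over 8478 genes, of which 17.0% were called). The adjusted p was 1.22e-12 for H2-K1, which was lower in NZB in NK-like cells and higher in pDC-like cells. It was 3.37e-12 for H2-T23, whose difference ran in 1 direction with unequal size, 8.61e-12 for H2-D1 and 3.85e-11 for H2-T22, which was called in monocyte-like and not in pDC-like cells. It was 1.42e-10 for H2-Q7, 7.80e-06 for B2m, 0.00166 for H2-Q6 and 0.00560 for H2-Q4. With 3 mice in each strain no test for a mouse far from its group was made.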

How the results depend on the processing

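Of the 47 gene by class calls between NZB and NZW, 25 were kept under every alternative in which the pair was tested and 33 without any 1 mouse. With at least 2000 UMIs and 1000 genes per cell the NZB to NZW calls were 27 (of 65 tests in 8 classes), those of NZBWF1 against NZB 9 and against NZW 8, those against the parental log mean 0 for the 10 genes and 0 for the other pathway genes, interactions 4 (in 6 classes) and separated neighbour classes 15. With at most 5% mitochondrial UMIs they were 24 (of 66 tests), 12 against NZB, 2 against NZW, and 0 neighbour pairs. With classes taken from clusters 2 of the 10 genes' tests and 8 of the other pathway genes' tests were called against the parental log mean. DESeq2 gave 38 NZB to NZW calls (not called were H2-K1 in mature neutrophil-like, H2-Q4 and H2-T22 in mature B-like, H2-Q6, H2-Q7 and Tapbp in GMP-like, H2-Q7 in progenitor-like, H2-T23 in T-like and Tap1 in immature neutrophil-like cells), 11 against NZB, 10 against NZW and 18 for the other pathway genes. Both cell filters leave fewer cells, and the part of cell number in the changes was not tested. Leaving out 1 mouse gave 39 to 49 NZB to NZW calls, 12 to 17 against NZB, 7 to 18 against NZW, 1 to 2 against the parental log mean, 7 to 8 interactions, 0 to 21 neighbour pairs, and 18 to 30 and 2 to 3 for the other pathway genes between parents and against their log mean. The neighbour test has fewer possible p-values with a mouse left out. Of the 47 calls the direction turned in 1, H2-K1 in immature neutrophil-like cells, at -0.01 with the stricter minimum, and the cause was not tested. Of 99 class-wise correlations between same-numbered mice 35 were above 0.1 (median 0.0370, -0.30 to 0.649). They were highest in mature neutrophil-like cells (0.0370 to 0.649), and in these, immature neutrophil-like, T-like and NK-like cells every pair of replicate 1 or 2 was above 0.1, but in none of these 4 classes was every pair. The labels name no shared source. The paper mentions batches without saying which mice each held, so whether same-numbered mice shared a batch is not known. A replicate block gave 48 calls between NZB and NZW, 19 against NZB, 18 against NZW and 1 against the parental log mean. The calls under the block were not all the same ones. Against NZW, H2-D1 in pDC-like cells (edgeR, adjusted p = 0.0773) and H2-T23 in GMP-like cells (0.0678) were lost. Against NZB, those lost were H2-T23 in GMP-like (edgeR, adjusted p = 0.0550), H2-K1 in pDC-like (0.0764), and H2-Q4 and H2-T22 in mature B-like cells (0.0529 and 0.0539). Depth limited H2-Q6, H2-Q4 and Tap1 most, which fell below the filter in 6, 5 and 3 of 12 classes.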
